A study of Homo sapiens with 4 samples.

Results

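The response of PANC-1 cells to cannabichromene (CBC) was read from 2 of the 4 libraries of the series, 1 from CBC-treated cells and 1 from their control. A gene was described when it reached at least 1 CPM (the depth-scaled read count, on library sizes scaled with TMM) in at least 1 of these 2 libraries. Of 58233 gene identifiers in the count table, 14091 met this rule, and no gene class was left out. The other 44142 identifiers stayed under 1 CPM in both PANC-1 libraries, and 33025 of them had no count there. The genes nearest the limit were C1QTNF3, with 23 and 11 counts and a highest level of 1.01 CPM, and ENSG00000277007, with 0.988 CPM, which was not described.

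PANC-1 and MIA PaCa-2 are established human pancreatic cancer cell lines, and both are labelled as WT genotype. PANC-1 cells received 30 µM CBC and MIA PaCa-2 cells 35 µM, doses given in the study's methods, and RNA was taken at 24 h. The control of each line is labelled PBS, whereas the methods speak of a vehicle and give acetonitrile as the solvent of CBC, so CBC and its solvent cannot be told apart if the control lacked the solvent. Poly(A) RNA was made into directional libraries, 1 library per line and condition, and nothing in the labels names a clone or a separate culture.

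CBC is a cannabinoid made by hemp that lacks the intoxicating action of tetrahydrocannabinol. Cells that meet oxidative or protein folding stress switch on sets of genes through factors such as NRF2, ATF4 and XBP1, which supply antioxidant enzymes, amino acids and chaperones. Dividing cells switch on replication and mitosis genes through E2F factors and the complexes that bind the cell cycle genes homology region (CHR), and these genes fall together when cells stop entering S phase.

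The 4 libraries held 21742775 to 27903667 counts on genes, with 24365261 in the untreated and 27903667 in the treated PANC-1 library. A count of 0 allowed a level of up to 3 counts, which is 0.132 CPM in the untreated and 0.11 CPM in the treated PANC-1 library. With 1 library per condition no difference has a replicate check and no p-value is given. The 95% intervals in parentheses are exact binomial (Clopper-Pearson) intervals of the 2 counts on the log2 scale and cover counting error only. PANC-1 cells read 7 of 9 markers of pancreatic duct epithelium, with a summed level of 2292 CPM in the control and 1481 CPM after CBC, whereas the defining ductal gene CFTR was at 0. No marker of acinar, endocrine or endothelial cells reached 1 CPM. Of the markers of other cells, 2 of 7 of fibroblasts (COL1A1 and PDGFRB, with a summed marker level of 136 CPM in the control and 47.1 CPM after CBC) and 1 of 6 of immune cells (CD14) did. COL3A1, DCN, LUM, FAP and PTPRC were at 0.

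The promoter windows below are shown because they belong to genes on which the PANC-1 response turns. Each runs from 250 bases before to 50 bases after a RefSeq transcript start on GRCh38.p14, 5′ to 3′ on the gene's strand. CHAC1 (chr15:40953221-40953520, plus strand) and ATF3 (chr1:212565157-212565456, plus strand) are stress genes that rose, and the capitals mark the core of the composite element bound by CHOP and ATF4. CDC6 (chr17:40287629-40287928, plus strand) and CDCA5 (chr11:65083991-65084290, minus strand) are S phase and cohesion genes that fell in PANC-1 cells with little shift in MIA PaCa-2 cells, and the capitals mark a match to an E2F site.
CHAC1: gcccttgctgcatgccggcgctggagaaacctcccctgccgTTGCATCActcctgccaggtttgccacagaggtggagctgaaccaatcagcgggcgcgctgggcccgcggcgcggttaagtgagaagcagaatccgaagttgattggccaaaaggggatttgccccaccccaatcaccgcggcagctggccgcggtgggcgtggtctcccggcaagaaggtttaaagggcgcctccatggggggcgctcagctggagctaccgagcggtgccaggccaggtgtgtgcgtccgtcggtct
ATF3: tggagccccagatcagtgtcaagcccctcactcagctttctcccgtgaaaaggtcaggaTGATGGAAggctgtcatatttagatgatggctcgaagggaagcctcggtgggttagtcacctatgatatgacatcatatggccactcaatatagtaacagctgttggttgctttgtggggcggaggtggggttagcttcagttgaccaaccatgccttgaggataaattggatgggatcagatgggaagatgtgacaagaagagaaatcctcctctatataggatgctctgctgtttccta
CDC6: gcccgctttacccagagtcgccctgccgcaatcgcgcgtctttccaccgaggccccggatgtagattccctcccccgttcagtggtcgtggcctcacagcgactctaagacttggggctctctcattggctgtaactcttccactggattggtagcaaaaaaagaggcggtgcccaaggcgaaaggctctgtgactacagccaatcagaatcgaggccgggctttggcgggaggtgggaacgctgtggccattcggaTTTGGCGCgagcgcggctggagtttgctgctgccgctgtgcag
CDCA5: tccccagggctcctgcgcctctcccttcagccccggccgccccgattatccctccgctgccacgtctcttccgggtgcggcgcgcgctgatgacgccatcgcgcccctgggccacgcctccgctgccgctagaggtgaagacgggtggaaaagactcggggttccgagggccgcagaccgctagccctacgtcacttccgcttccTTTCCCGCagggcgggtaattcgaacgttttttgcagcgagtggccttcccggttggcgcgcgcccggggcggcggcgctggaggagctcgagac
The first base of the match lay at -209 from the start in CHAC1, at -191 in ATF3, at 8 in CDC6 and at -45 in CDCA5. A second ATF3 window (chr1:212614768-212615067) held no match to these motifs. A match is a description of the letters and does not show binding.

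Of the 14091 genes, 1087 (7.71%) were higher after CBC, with a log2 fold change above 1, and 991 (7.03%) were lower, with a log2 fold change below -1. In MIA PaCa-2 cells the same threshold called 1608 of 14001 genes higher (11.5%) and 1256 lower (8.97%). The median log2 fold change over the PANC-1 genes was 0.02, and 8591 of them lay within 0.5 of 0. The counting interval lay wholly past the threshold for 557 of the higher and 630 of the lower genes. Past a log2 fold change of 3, 67 genes were higher and 22 lower, so the steepest changes were mostly increases. With TMM computed within the line alone, 1013 genes were higher and 1033 lower, which turns the balance of directions.
Calls were more frequent among genes at low levels. Below a mean of 1 CPM, 132 of 453 genes were higher and 113 lower, whereas above 100 CPM 96 of 2646 were higher and 124 lower. Among 568 genes under 1 CPM in the control, 349 were higher, and among 428 genes under 1 CPM after CBC, 250 were lower; such genes entered the description only through the library in which they were high, so these counts describe the filter.

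**Figure D1:**
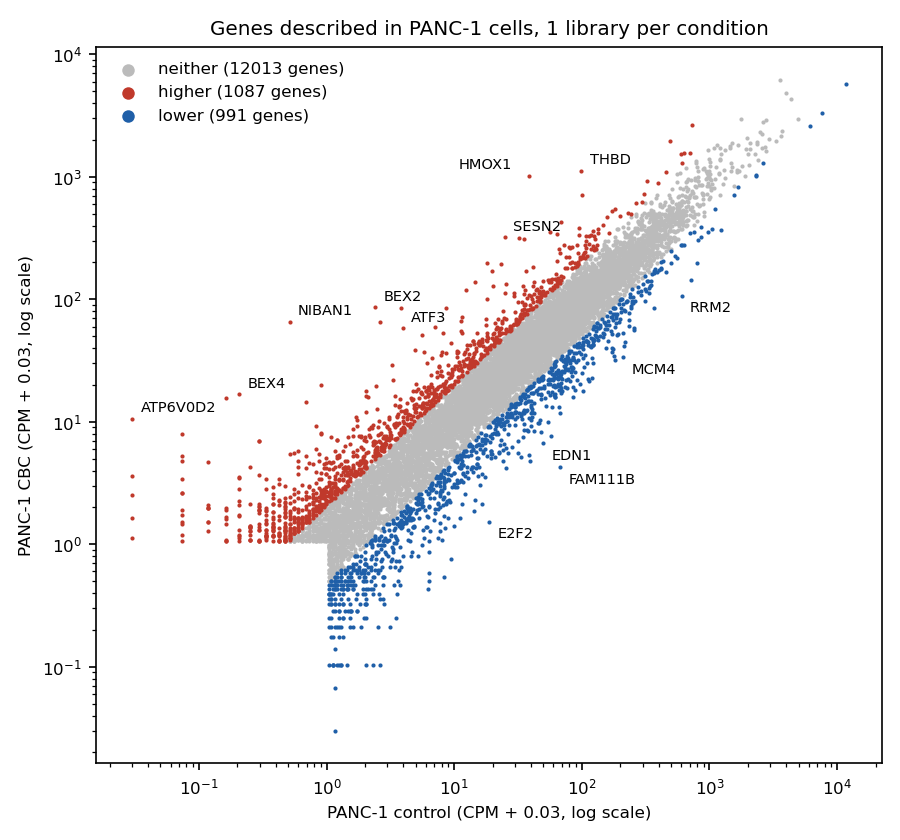
Level of each of the 14091 described genes before (x axis) and after CBC (y axis) in PANC-1 cells, in CPM with 0.03 added on log axes, 1 library each. The 1087 higher genes are red, the 991 lower genes blue and the others grey. HMOX1 (1022 CPM after CBC) and THBD (1123 CPM) stand out among the higher genes, and replication genes such as MCM4 and RRM2 among the lower ones.

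The higher genes with the most certain increases included stress and vesicle genes, and of the 12 named by this measure all but BEX4 also rose in MIA PaCa-2 cells. NIBAN1, a stress-induced regulator of translation, was at 0.484 CPM in the control and 65.9 CPM after CBC. ATP6V0D2, a subunit of the proton pump that acidifies lysosomes and osteoclast borders, had no count in the control and 290 counts after CBC. That level was 80.4-fold the level of 3 control counts, with a lower log2 bound of 6.02. KCP, a secreted modulator of BMP signalling, had 3 and 424 counts, a ratio of 118 with a log2 interval from 5.32 to 9.16. These 3 genes were almost silent in untreated PANC-1 cells.
RAB39B, a small GTPase of vesicle traffic, was at 2.59 CPM in the control and 65.8 CPM after CBC, a log2 fold change of 4.62 (4.29 to 5.06). LAMP3, a lysosomal membrane protein, was at 3.78 CPM in the control and 85.3 CPM after CBC, a change of 4.47 (4.18 to 4.82). SESN2, an inhibitor of the growth kinase complex mTORC1, was at 24.98 CPM in the control and 323 CPM after CBC, and its change of 3.69 (3.57 to 3.82) stood beside 3.78 in MIA PaCa-2 cells. RPS6KA2, a ribosomal S6 kinase, and ALDH1L2, a mitochondrial folate enzyme, rose by 4.38 and 4.29 and stood beside 3.34 and 2.32 in MIA PaCa-2 cells. HMOX1, the heme-degrading enzyme, had a change of 4.72 (4.62 to 4.82) beside 5.24, and came to 0.1% of all PANC-1 counts after CBC, and THBD to 0.11%.

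The lower genes with the most certain decreases were led by genes of DNA replication. FAM111B, a protease linked to replication, was at 67.4 CPM in the control and 4.21 CPM after CBC, a log2 fold change of -3.97 (-4.29 to -3.73). E2F2, a transcription factor of S phase entry, was at 18.7 CPM in the control and 1.5 CPM after CBC, a change of -3.57 (-4.14 to -3.18). ORC1, which marks replication origins, was at 39.6 CPM in the control and 4.76 CPM after CBC, and MCM10, which starts the replicative helicase, at 56.9 CPM in the control and 7.65 CPM after CBC. RRM2, the regulated subunit of the enzyme that makes deoxyribonucleotides, fell from 606 to 107 CPM, the change with the highest count behind it among these genes.
Other genes of this group are better known for other functions. EDN1, which encodes the vasoconstrictor peptide endothelin 1, was at 49.6 CPM in the control and 6.70 CPM after CBC. SMAD6, an inhibitor of BMP signalling, was at 16.6 CPM in the control and 2.09 CPM after CBC, and RAB26, a GTPase of secretory vesicles, at 14.2 CPM in the control and 1.83 CPM after CBC. SMAD6 and RAB26 also fell in MIA PaCa-2 cells, with log2 fold changes of -4.14 and -2.99. ZNF367, a zinc finger factor, and CDC25A, the phosphatase that activates CDK2, fell by 2.84 and 2.69 on the log2 scale. The replication genes named above and ZNF367 fell in MIA PaCa-2 cells too. The changes there were -2.89 for FAM111B, -2.17 for E2F2, -1.67 for ORC1, -1.55 for MCM10, -1.70 for RRM2 and -1.79 for ZNF367. CDC25A had -0.90 there, whereas EDN1 moved the opposite way.

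Each changed PANC-1 gene was placed by what MIA PaCa-2 cells showed for it. Of the 1087 higher genes, 416 also passed the threshold upward in MIA PaCa-2 cells and 173 had a change between 0.5 and 1 there. For 183 genes the MIA PaCa-2 change lay within 0.5 of 0, 22 had a change between -0.5 and -1, and 14 were lower past the threshold. The remaining 279 were under 1 CPM in both MIA PaCa-2 libraries, so their response could not be compared. Of the 991 lower genes, the corresponding numbers were 372, 205, 142, 25, 27 and 220.
Read against the 12502 genes described in both lines, the 183 higher genes with no shift in MIA PaCa-2 cells were 1.46% and the 142 lower genes 1.14%. The line by treatment term has 0 residual degrees of freedom with these libraries, so the difference between the lines was not tested across cultures, and the dose cannot be told apart from the line. The difference of the 2 log2 fold changes had a counting interval wholly above 1 for 264 of the 12502 genes (2.11%) and wholly below -1 for 417 (3.34%). It passed 1 in this way for 34 of the 183 higher genes and -1 for 30 of the 142 lower genes. Conversely, 397 genes that rose and 339 that fell in MIA PaCa-2 cells lay within 0.5 of 0 in PANC-1 cells.

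**Figure D2:**
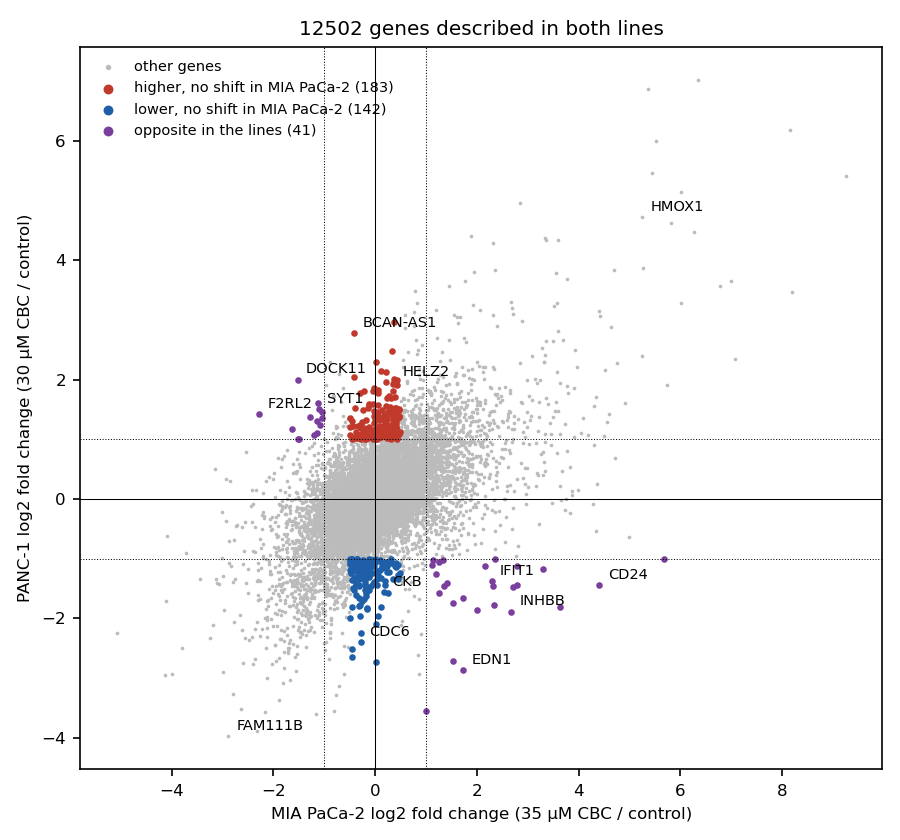
Log2 fold change of CBC against control in PANC-1 cells (y axis, 30 µM) and in MIA PaCa-2 cells (x axis, 35 µM) for the 12502 genes described in both lines, with dotted lines at -1 and 1. The 183 higher and 142 lower genes with no shift in MIA PaCa-2 cells fill the bands around 0 on the x axis, and the 41 genes past the threshold in opposite directions lie in the upper left and lower right corners.

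The genes that rose in PANC-1 cells with no shift in MIA PaCa-2 cells came from many functions. HELZ2 (chromosome 20, 63558086 to 63574239), a helicase that acts as a transcriptional coactivator, was at 66.0 CPM in the control and 257 CPM after CBC, and at 76.8 and 99.7 CPM in the MIA PaCa-2 control and CBC libraries. Its log2 fold change was 1.96 (1.88 to 2.04) in PANC-1 cells and 0.38 (0.29 to 0.47) in MIA PaCa-2 cells. HDAC9, a histone deacetylase, was at 10.8 CPM in the control and 37.2 CPM after CBC, and at 64.9 and 67.9 CPM in the MIA PaCa-2 pair. The rule that chose these genes asks for a MIA PaCa-2 change within 0.5 of 0, so the contrast between the pairs is no separate result.
Enzymes of lipid, sugar and quinone metabolism were among them. CYP4V2, a fatty acid hydroxylase, was at 1.19 CPM in the control and 7.03 CPM after CBC, a log2 fold change of 2.48 (1.98 to 3.20), with 9.44 and 11.9 CPM in the MIA PaCa-2 pair. PPP1R3B, which brings protein phosphatase 1 to glycogen, was at 6.60 CPM in the control and 24.2 CPM after CBC, a change of 1.86 (1.61 to 2.14), and at 4.36 and 4.33 CPM in the MIA PaCa-2 pair. NQO2, a quinone reductase, was at 46.5 CPM in the control and 117 CPM after CBC, and at 129 and 113 CPM in the MIA PaCa-2 pair. GLCE, an epimerase of heparan sulfate synthesis, was at 47.9 CPM in the control and 113 CPM after CBC, and at 19.2 and 15.7 CPM in the MIA PaCa-2 pair. NQO2 started lower in PANC-1 than in MIA PaCa-2 cells and came near their level after CBC, whereas PPP1R3B and GLCE were higher in PANC-1 cells already before it.
PSD4, an exchange factor for the GTPase ARF6, was at 6.29 CPM in the control and 18.3 CPM after CBC, with a change of 1.53 (1.27 to 1.82). The uncharacterised C17orf107 changed by 2.04 (1.49 to 2.82) and SLC66A1L by 2.30 (1.502 to 3.71). The antisense RNA genes BCAN-AS1, PSMG3-AS1 and URB1-AS1 changed by 2.78 (2.20 to 3.70), 1.77 (1.40 to 2.21) and 2.15 (1.58 to 2.97). Whether reads were counted by strand is not given in the sources used here, so reads of such genes and of the genes they overlap may not be separated.
From the process lists, BLVRB, a biliverdin reductase, was at 34.2 CPM in the control and 94.6 CPM after CBC, a log2 fold change of 1.47 (1.35 to 1.59) beside 0.40 in MIA PaCa-2 cells.

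The genes that fell in PANC-1 cells with no shift in MIA PaCa-2 cells were led by CDC6 (chromosome 17, 40287879 to 40304657), the loader of the replicative helicase whose promoter is shown above. CDC6 was at 119.6 CPM in the control and 22.6 CPM after CBC, a log2 fold change of -2.40 (-2.53 to -2.28), against 140.0 and 116 CPM and a change of -0.28 (-0.35 to -0.20) in the MIA PaCa-2 line. CDCA5, which encodes sororin, the protector of sister chromatid cohesion, was at 161 CPM in the control and 45.5 CPM after CBC, against 84.2 and 61.7 CPM in the MIA PaCa-2 pair. RECQL4, a replication helicase, was at 74.9 CPM in the control and 21.8 CPM after CBC, against 142 and 116 CPM in the MIA PaCa-2 pair. Before CBC the 2 lines stood at like levels of CDC6, and after it the PANC-1 level alone was low.
FAAP100, a subunit of the Fanconi anaemia core complex, was at 145 CPM in the control and 68.9 CPM after CBC, a change of -1.07 (-1.15 to -0.99) against 0.41. CKB, the brain-type creatine kinase, was at 78.6 CPM in the control and 26.7 CPM after CBC, a change of -1.56 (-1.69 to -1.43), with 102 and 116 CPM in the MIA PaCa-2 pair. SLCO4A1, an organic anion transporter, was at 58.6 CPM in the control and 26.5 CPM after CBC, a change of -1.14 (-1.28 to -1.01) against 0.42. SGK1, a kinase of ion transport and survival, was at 10.8 CPM in the control and 4.98 CPM after CBC, against 377 and 517 CPM in the MIA PaCa-2 pair. SGK1 was thus far lower in PANC-1 cells already before treatment.
COL7A1, the collagen of anchoring fibrils, fell by 1.23 on the log2 scale (interval -1.39 to -1.07), and TP53I11 fell by 1.35 (interval -1.53 to -1.18). CORO6, an actin-binding coronin, RASL10A, a RAS-like GTPase, and IKBIP had changes of -1.84, -2.72 and -1.08. RASL10A rested on 82 and 13 counts, and its interval ran from -3.89 to -2.07.

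**Figure D3:**
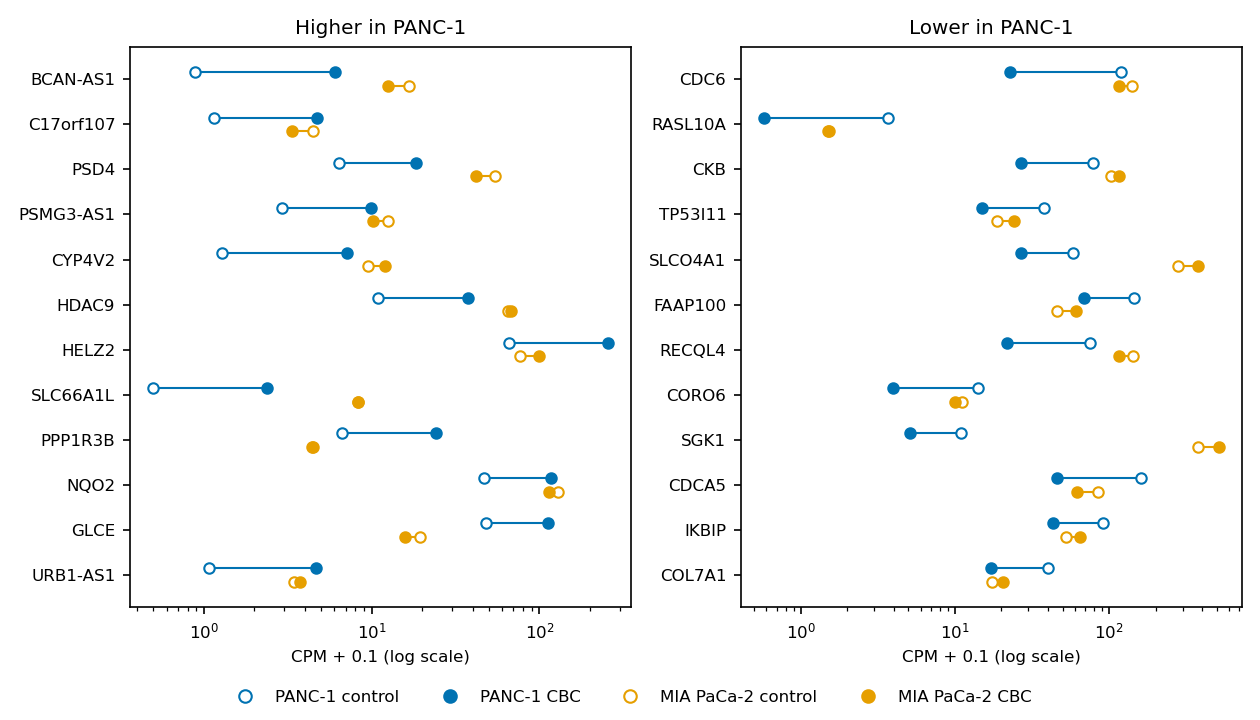
Level (CPM with 0.1 added, log scale) of the 12 named genes higher (left) and 12 lower (right) in PANC-1 cells with no shift in MIA PaCa-2 cells. Open circles are control and filled circles CBC libraries, 1 each, blue for PANC-1 and orange for MIA PaCa-2. The blue pair is wide apart and the orange pair close together in every row.

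Among the 1589 genes described in PANC-1 cells and under 1 CPM in both MIA PaCa-2 libraries, 279 (17.6%) were higher and 220 (13.8%) lower. These genes rested on fewer counts in PANC-1 cells, with a median of 62.5 (mean of the pair) against 892 for the genes described in both lines, and genes with few counts were called more often in either direction. THBD (chromosome 20, 23045633 to 23049672), which encodes thrombomodulin, the endothelial receptor that turns thrombin into an anticoagulant, had by far the highest counts of them. It was at 99.2 CPM in the control and 1123 CPM after CBC, a log2 fold change of 3.50 (3.44 to 3.56), and had no count in either MIA PaCa-2 library, where 3 counts would be 0.135 and 0.121 CPM. The endothelial markers, fixed as a list, were all under 1 CPM in PANC-1 cells.
BEX4 (chromosome X, 103215108 to 103217246), of a family of small brain-expressed proteins, had 4 counts in the control and 458 after CBC, and none in MIA PaCa-2 cells. Its relative BEX2 rose in both lines, by 5.13 and 6.02. TMIE, a protein of sensory hair cells, had 1 and 131 counts, PRPH, a neuronal intermediate filament, 2 and 128, and ZSCAN10, a factor of pluripotent cells, 1 and 92. In MIA PaCa-2 cells TMIE went from 0 to 17 counts and PRPH from 0 to 10, the same direction, and ZSCAN10 had none. With 1 or 2 counts in the PANC-1 control, the log2 intervals of TMIE, PRPH and ZSCAN10 ran from 4.26 to 12.08, from 3.85 to 8.80 and from 3.74 to 11.58. The antisense gene TROAP-AS1, which spans PRPH on the other strand, went from 1 to 71 counts in PANC-1 cells, with an interval from 3.36 to 11.21. As the strand setting is not given, reads of PRPH and TROAP-AS1 may not be separated. NRG1, a ligand of the ERBB3 receptor, rose on far more counts, from 44.9 to 96.1 CPM, a change of 1.10 (0.99 to 1.21), and had no count in MIA PaCa-2 cells.
On the lower side, RP1L1, a gene known from photoreceptors, had 189 and 14 counts, and PAX5, the B cell factor, 140 and 11. HAPLN3, which links hyaluronan to proteoglycans, had 145 and 15 counts. ATOH8, a bHLH factor, ASB4, a SOCS box protein, and the noncoding CRMA each fell to 2 counts, from 46, 52 and 59, with log2 intervals from -7.88 to -2.85, from -8.05 to -3.04 and from -8.23 to -3.23. These genes of other tissues were low in PANC-1 cells before CBC, between 2.02 CPM in ATOH8 and 8.31 CPM in RP1L1. In MIA PaCa-2 cells HAPLN3 also fell, from 17 to 3 counts, RP1L1 had 6 and 4, and ATOH8 0 and 3. PAX5, ASB4 and CRMA had no count there.

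Opposite changes past the threshold were seen in 41 genes, 14 higher in PANC-1 and lower in MIA PaCa-2 cells (0.112% of 12502) and 27 the other way (0.216%). DOCK11, an activator of the GTPase CDC42, was at 2.11 CPM in the control and 8.67 CPM after CBC in PANC-1 cells and at 429 CPM in the control and 149 CPM after CBC in the MIA PaCa-2 pair. SYT1, the calcium sensor of synaptic vesicle release, was at 49.96 CPM in the control and 142 CPM after CBC, and at 61.7 CPM in the control and 28.7 CPM after CBC in the MIA PaCa-2 pair. F2RL2, a thrombin receptor, rose by 1.42 (1.22 to 1.64) in PANC-1 cells, against -2.28 (-4.42 to -1.30) on 29 and 5 counts in MIA PaCa-2 cells. KNDC1 and FAM131C rose by 1.45 and 1.003 in PANC-1 cells, and FAM131C lay at the threshold.
In the other direction, FLRT1, an adhesion protein, had 75 and 24 counts in PANC-1 cells and 1 and 37 in MIA PaCa-2 cells, with intervals from -2.64 to -1.23 and from 2.49 to 10.40. LPAR6, a receptor of lysophosphatidic acid, had 27 and 15 counts in PANC-1 cells, an interval from -2.13 to -0.15. In MIA PaCa-2 cells it had none in the control and 103 after CBC. That level was 30.9-fold the level of 3 control counts, with a lower log2 bound of 4.62. The surface glycoprotein CD24 and the activin subunit INHBB also fell in PANC-1 cells, to 0.368 and 0.269 of their control levels. CCN1, a matricellular target of YAP, fell from 602 to 279.6 CPM in PANC-1 cells and had a change of 1.11 in MIA PaCa-2 cells. Its relative CCN2 fell from 235 to 67.2 CPM and was under 1 CPM in MIA PaCa-2 cells.

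Lists of genes by process, written with earlier results of these data known, are described by their counts and medians beside the background of 7.71% higher and 7.03% lower genes, with no set test. In the counts of list members, higher or rose and lower or fell mean past the threshold. Of 43 DNA replication genes, all 43 were described, 41 were lower in PANC-1 cells and none was higher, and the median change was -1.95 on the log2 scale. Of the same genes 29 were lower in MIA PaCa-2 cells, with a median of -1.22. For 38 of the 43 genes the PANC-1 change was the lower of the pair. For 6 the counting interval of the difference lay wholly below -1, beside 3.34% of all genes described in both lines. The share of all genes with the lower PANC-1 change is not given, here or for the lists below. The medians over all genes described were 0.02 in PANC-1 and -0.01 in MIA PaCa-2 cells.
By role, all 12 licensing genes fell, with a median of -2.12 against -1.17 in MIA PaCa-2 cells, where 7 of the 12 were lower. CDT1, which loads the helicase with CDC6, was at 46.5 CPM in the control and 9.70 CPM after CBC, a log2 fold change of -2.25 (-2.46 to -2.07) against -0.66. MCM4, a helicase subunit, fell from 212 to 33.6 CPM, a change of -2.65 (-2.76 to -2.55) against -1.58. Of 21 fork genes 20 fell, with a median of -1.66, among them FEN1, the flap nuclease, at -2.25 against -0.89, and PCNA, the sliding clamp, at -2.36 against -1.68. The 4 genes of chromatin assembly and maintenance fell, with a median of -2.09, and 5 of 6 genes of nucleotide supply, with a median of -1.97. The exceptions to the threshold were DUT and RPA3, at -0.91 and -0.96.

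G1/S regulators fell less evenly, with 13 of 23 described genes lower, 2 higher and a median of -1.25 against -1.10 in MIA PaCa-2 cells. CCNE1 and CCNE2, the E cyclins, fell by 1.33 and 2.57 on the log2 scale in PANC-1 cells, with changes of -0.31 and -1.71 in MIA PaCa-2 cells. CDK6, the partner of D cyclins, was at 225 CPM in the control and 96.6 CPM after CBC, a change of -1.22 (-1.29 to -1.15) against -0.29. CCND2 rose, from 2 to 56 counts, with a log2 interval from 2.62 to 7.62, and so did CDKN1C, a CDK inhibitor, by 1.05. E2F7, a repressor of the family, had a change of 0.76 in PANC-1 cells and -0.81 in MIA PaCa-2 cells, and its PANC-1 interval ran from 0.68 to 0.85.

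Of 49 mitosis genes 39 fell in PANC-1 cells and none rose, with a median of -1.34, against 31 lower and a median of -1.17 in the MIA PaCa-2 line. CDC20, an activator of the anaphase-promoting complex, was at 288 CPM in the control and 117 CPM after CBC, a log2 fold change of -1.30 (-1.36 to -1.24) against -0.33. UBE2C, the ubiquitin carrier of the same complex, fell by 1.42 (interval -1.52 to -1.33) against -0.38, so both of these lay in the group with no shift in MIA PaCa-2 cells. MYBL2, a factor that binds late cell cycle promoters, fell by 1.99 against -0.87. CDC25B, a phosphatase that activates CDK1, had a change of 0.27 (0.23 to 0.31) in PANC-1 cells against -1.03.
DNA repair genes fell in 24 of 35 cases, with a median of -1.29 against -0.98, and none rose. Recombination genes had 9 of 12 lower, among them EXO1, a resection nuclease, at -2.52 (-2.75 to -2.33) against -0.99. Fanconi genes had 9 of 11 lower, led by BRIP1 at -2.44 (-2.64 to -2.26) against -1.62. Among 7 genes of checkpoint signalling 4 were lower in PANC-1 and 0 in MIA PaCa-2 cells, and the checkpoint adaptor CLSPN was at 114 CPM in the control and 21.6 CPM after CBC, a change of -2.39 (-2.53 to -2.27) against -0.97.
Replication-dependent histone genes fell in 23 of 36 described cases, with a median of -1.32, against 28 of 37 and a median of -1.503 in the MIA PaCa-2 line. With members required to reach 1 CPM in both libraries the PANC-1 median was -0.69, and with at least 5 CPM in 1 library it was -0.28. Several H2A and H2B genes that fell in MIA PaCa-2 cells did not move in step in PANC-1 cells, such as H2BC4 at 0.00 (-0.26 to 0.27) against -1.73 and H2AC11 at -0.04 (-0.31 to 0.24) against -1.21. Histone messages of this kind mostly lack a poly(A) tail and are near-identical copies, so their counts in poly(A) RNA are uncertain.

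**Figure D4:**
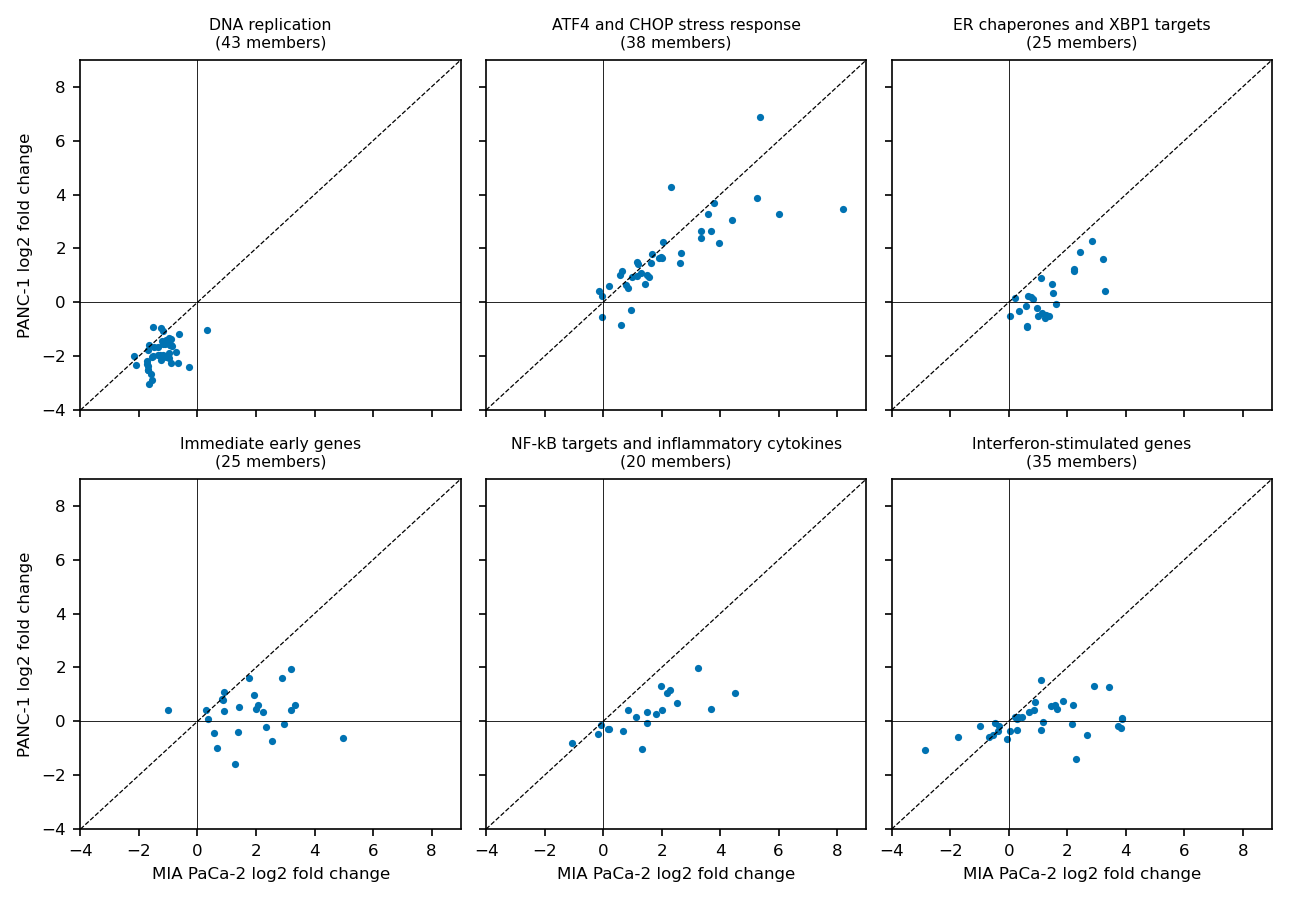
Log2 fold change of each list member in PANC-1 cells (y axis) and MIA PaCa-2 cells (x axis) for 6 lists, with members described in both lines and a dashed line where the changes are equal. Most replication genes lie below the dashed line on the lower left. ER chaperone, immediate early, NF-kB and interferon genes spread to the right along the x axis, with 25 of 25, 22 of 25, 19 of 20 and 27 of 35 below the dashed line. The share of all genes below that line is not given.

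ATF4 and CHOP response genes, which serve amino acid supply and the decision between recovery and death, rose in 27 of 40 described cases in PANC-1 cells, and none fell. Their median was 1.49, against 30 of 41 and a median of 1.91 in the MIA PaCa-2 line. Of 9 factors 7 were higher, with a median of 2.40, and of 13 described effectors 11, with a median of 2.22. ATF3, a repressor and activator of stress genes, was at 3.91 CPM in the control and 58.5 CPM after CBC, a change of 3.87 (3.59 to 4.23) against 5.26. CEBPB, a bZIP factor, was at 25.2 CPM in the control and 134 CPM after CBC, a change of 2.40 (2.28 to 2.54) against 3.35. NUPR1, a chromatin protein of stress, rose by 3.28 against 6.02, so these 3 factors had the larger change in MIA PaCa-2 cells.
Among the targets, GDF15, a secreted stress hormone, rose in PANC-1 cells from 17.9 to 198 CPM, a change of 3.46 (3.32 to 3.61) against 8.19. CHAC1, which breaks down glutathione and whose promoter is shown above, was at 11.5 CPM in the control and 72.3 CPM after CBC, a change of 2.64 (2.46 to 2.84) against 3.36. SLC7A11, the cystine importer, was at 69.1 CPM in the control and 425 CPM after CBC, a change of 2.62 (2.55 to 2.699) against 1.78, and its partner chain SLC3A2 had 1.47 (1.41 to 1.53) against 2.63. Of 11 genes for amino acid and folate synthesis, 5 rose, with a median of 0.97 against 0.94. ALDH1L2 was at 0.660 CPM in the control and 14.5 CPM after CBC, MTHFD2, of mitochondrial folate metabolism, changed by 1.16 against 0.63, and PSAT1, of serine synthesis, by 1.02 against 0.58. ATF5 had a change of -0.83 (-0.92 to -0.75) in PANC-1 cells and 0.63 in MIA PaCa-2 cells. SHMT2, a mitochondrial enzyme of serine and glycine, had -0.30 against 0.94.

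NRF2 targets and genes of heme and iron handling had 12 of 43 members higher and none lower, with a median of 0.47 in PANC-1 and 0.40 in MIA PaCa-2 cells. IDH1, which supplies NADPH in the cytosol, was at 63.9 CPM in the control and 345 CPM after CBC, a log2 fold change of 2.43 (2.35 to 2.51) against 0.82 (0.73 to 0.92), and the difference of 1.61 (1.49 to 1.73) was wholly above 1. SRXN1, which repairs peroxiredoxins, was at 3.39 CPM in the control and 13.8 CPM after CBC, a change of 1.997 (1.67 to 2.40) against 0.94. OSGIN1, an oxidative stress response gene, was at 6.99 CPM in the control and 59.6 CPM after CBC, a change of 3.08 (2.86 to 3.33) against 2.33. The differences of SRXN1 and OSGIN1 between the lines, 1.06 (0.56 to 1.57) and 0.75 (0.46 to 1.05), were above 0 but not wholly above 1.
FTH1, the heavy chain of ferritin, was at 603 CPM in the control and 1545 CPM after CBC, a change of 1.36 (1.33 to 1.39) against 1.02. MGST1, a membrane glutathione transferase, was at 10.5 CPM in the control and 21.5 CPM after CBC, a change of 1.03 (0.82 to 1.26) against -0.22. The enzymes of glutathione synthesis went separate ways, with GCLM, the modifier subunit, at 0.73 (0.66 to 0.81) against -0.51 and GCLC, the catalytic subunit, at 0.66 (0.61 to 0.72) against 2.09, neither past the threshold in PANC-1 cells. SQSTM1, the autophagy receptor that also binds KEAP1, was at 491 CPM in the control and 1949 CPM after CBC, a change of 1.99 (1.96 to 2.02) against 2.995. UGDH, which makes the sugar for glucuronidation, had -0.62 (-0.70 to -0.55) against 0.86.

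Chaperones and other genes of the endoplasmic reticulum (ER) had lower log2 fold changes in PANC-1 than in MIA PaCa-2 cells throughout. Of 25 ER genes, 5 rose in PANC-1 cells with a median of 0.13, whereas 15 rose in MIA PaCa-2 cells with a median of 1.13. None was lower past the threshold in either line, but 11 had counting intervals wholly below 0 in PANC-1 cells. The PANC-1 change was the lower of the pair for all 25, and for 13 the counting interval of the difference lay wholly below -1, beside 3.34% of all genes described in both lines. Of 4 sensors 2 rose in PANC-1 cells, with a median of 1.07. HSPA5, the main ER chaperone, was at 731 CPM in the control and 2656 CPM after CBC, a change of 1.86 (1.84 to 1.89) against 2.43. ERN1, the sensor that splices XBP1, and HERPUD1, of ER-associated degradation, changed by 2.27 (2.09 to 2.48) and 1.62 (1.47 to 1.77) against 2.84 and 3.23.
Of 14 chaperones 2 rose in PANC-1 cells, with a median of -0.44, against 8 and a median of 1.07 in the MIA PaCa-2 line. DNAJB9, a co-chaperone of HSPA5, was at 16.8 CPM in the control and 22.4 CPM after CBC, a change of 0.41 (0.22 to 0.60), and at 10.6 CPM in the control and 105 CPM after CBC in the MIA PaCa-2 pair, a change of 3.30 (3.11 to 3.50). HSP90B1, the ER form of HSP90, was at 958 CPM in the control and 719 CPM after CBC, a change of -0.41 (-0.44 to -0.39) against 1.13. MANF, a secreted ER stress protein, had -0.58 (-0.72 to -0.45) against 1.26, and the lectin chaperone CALR had -0.91 (-0.94 to -0.88) against 0.64. The ER kinase EIF2AK3 was at 23.9 CPM in the control and 22.8 CPM after CBC, a change of -0.06 (-0.23 to 0.10) against 1.62. HSP90B1, MANF and CALR thus had intervals below 0 in PANC-1 cells and changes above 0 in MIA PaCa-2 cells.
Heat shock genes had 0 of 23 members higher and 2 lower in PANC-1 cells, with a median of -0.56 against 0.20 in MIA PaCa-2 cells. The 11 HSP70 and HSP40 genes had a median of -0.56, the 5 described HSP90 and small heat shock genes -0.65 and the 5 mitochondrial ones 0.04. HSPA1A, the inducible HSP70, fell from 61.9 to 29.3 CPM, a change of -1.08 (-1.20 to -0.95) against 0.52. HSPA6, a strictly inducible HSP70, was at 2.33 CPM in the control and 1.57 CPM after CBC, a change of -0.54 (-1.18 to 0.04) against 4.35.

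Genes of the early transcriptional response passed the threshold less often in PANC-1 than in MIA PaCa-2 cells at 24 h. Over all genes described, 7.71% were higher in PANC-1 and 11.5% in MIA PaCa-2 cells. Of 27 described immediate early genes, 4 rose and 1 fell, with a median of 0.43, whereas 19 of 28 rose in MIA PaCa-2 cells with a median of 1.96. FOSB, of the AP-1 complex, was at 7.26 CPM in the control and 4.65 CPM after CBC, a change of -0.63 (-0.99 to -0.30) against 4.98. JUNB was at 20.01 CPM in the control and 17.2 CPM after CBC, a change of -0.21 (-0.40 to -0.03) against 2.35, and FOSL1 had -0.41 (-0.46 to -0.36) against 1.40. NR4A1, an early orphan receptor, had -0.72 against 2.55. DUSP5, a phosphatase of ERK, rose from 72.2 to 279 CPM, and KLF4, a Krüppel-like factor, from 6.60 to 20.4 CPM. DUSP2, another such phosphatase, fell, from 36 to 13 counts, against a change of 1.27.
NF-kB targets and inflammatory cytokines had 5 of 22 members higher and 2 lower, with a median of 0.31 against 1.501 in MIA PaCa-2 cells, where 15 of 22 rose. TNFAIP3, the feedback inhibitor of NF-kB, was at 5.81 CPM in the control and 8.05 CPM after CBC, a change of 0.47 (0.15 to 0.79) against 3.67. TRAF1 rose from 13.5 to 28.4 CPM, a change of 1.06 (0.87 to 1.26) against 4.49, and LIF, a cytokine of the interleukin 6 family, by 1.06 (0.99 to 1.13) against 2.19. The monocyte chemokine CCL2 fell from 22.8 to 6.48 CPM, a change of -1.80 (-2.07 to -1.57), with 0 and 1 counts in MIA PaCa-2 cells, and the macrophage growth factor CSF1 fell from 70.5 to 34.5 CPM, a change of -1.03 (-1.15 to -0.91) against 1.33.
Interferon-stimulated genes had 4 of 38 members higher and 3 lower, with a median of -0.03, against 20 of 41 higher and a median of 0.96 in the MIA PaCa-2 line. ISG15, a ubiquitin-like antiviral protein, was at 29.4 CPM in the control and 24.8 CPM after CBC, a change of -0.24 (-0.40 to -0.09) against 3.82. IFIT1, a sensor of viral RNA caps, fell from 10.99 to 4.17 CPM, whereas IFIT2 and IFIT3 rose, by 1.29 and 1.27. IRF7, the interferon regulatory factor, rose from 11.7 to 31.5 CPM and had no count in either MIA PaCa-2 library. IFIH1, an RNA sensor, had 0.07 against 3.87, and none of 12 genes of antigen presentation passed the threshold in PANC-1 cells.

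**Figure D5:**
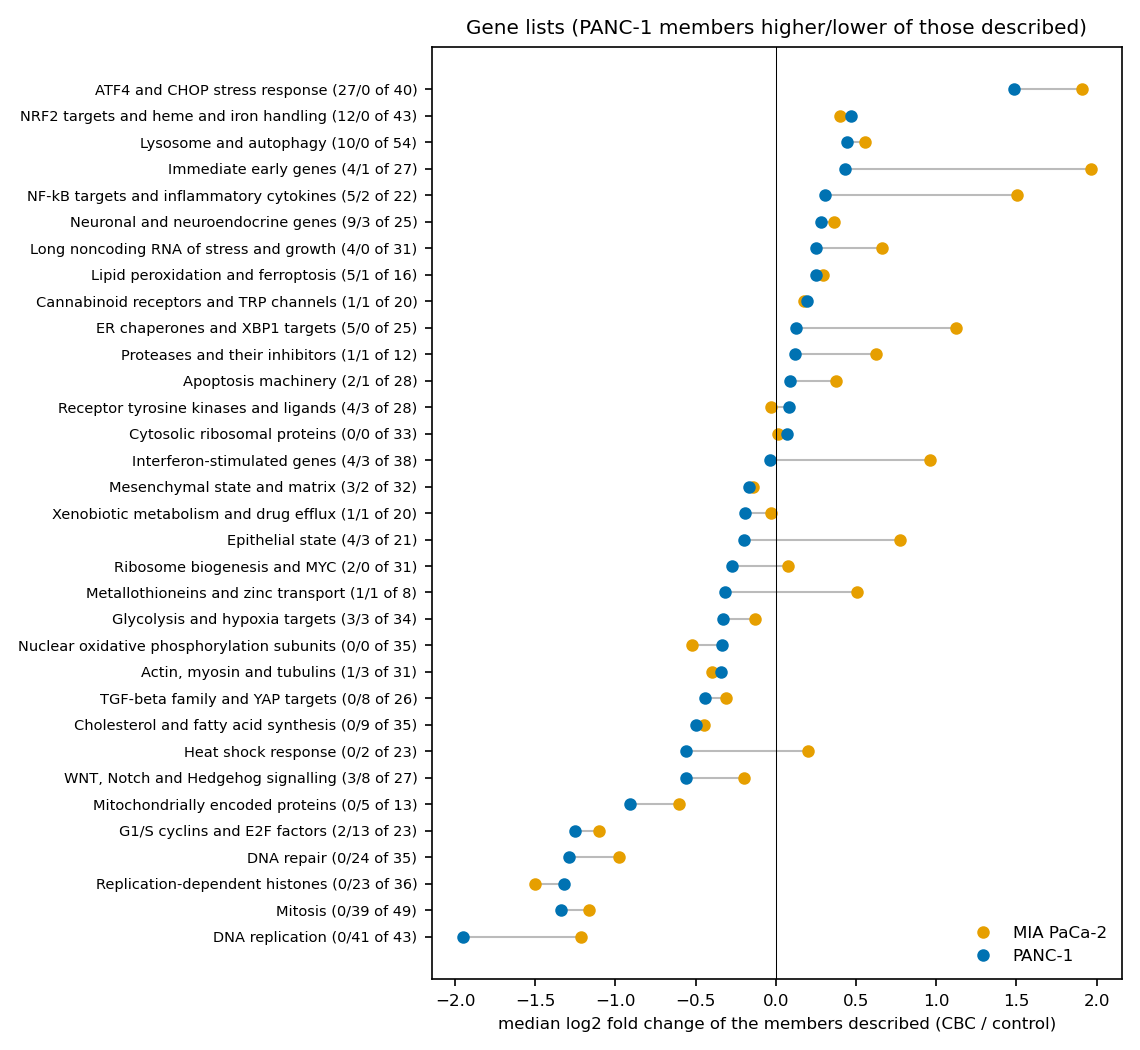
Median log2 fold change of the described members of each gene list plotted, blue for PANC-1 and orange for MIA PaCa-2 cells, ordered by the PANC-1 median, with the numbers of PANC-1 members higher and lower of those described in parentheses. The points are furthest apart for the immediate early genes (0.43 and 1.96), NF-kB targets (0.31 and 1.501), interferon-stimulated genes (-0.03 and 0.96) and ER chaperones (0.13 and 1.13).

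Of 28 genes of the apoptosis machinery, 2 rose and 1 fell in PANC-1 cells, with a median of 0.09. CASP4, an inflammatory caspase, was 1 of the higher ones, at 16.2 CPM in the control and 35.5 CPM after CBC, and none of 8 BCL2 family members passed the threshold. The lower one was TNFRSF21, a death receptor, at 101 CPM in the control and 42.3 CPM after CBC, a change of -1.25 (-1.36 to -1.15) against 1.20. Genes of lipid peroxidation and ferroptosis had 5 of 16 members higher and 1 lower, against 5 higher and 3 lower of 16 in MIA PaCa-2 cells. By role, in PANC-1 cells 2 of 6 drivers were higher and 1 lower, and 3 of 10 suppressors were higher and none lower. MBOAT1, a phospholipid acyltransferase, rose from 13.9 to 45.3 CPM, a change of 1.70 (1.53 to 1.89) against 0.93, and AIFM2, the coenzyme Q reductase FSP1, rose by 1.20 (1.10 to 1.31) against 2.15. GPX4, which reduces lipid peroxides, was at 182 CPM in the control and 178 CPM after CBC, a change of -0.03 (-0.09 to 0.03) against 0.01.

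WNT, Notch and Hedgehog genes fell in 8 of 27 cases and rose in 3, with a median of -0.56 against -0.20 in MIA PaCa-2 cells. For 5 of the 8 lower genes MIA PaCa-2 cells showed no shift, beside 142 of all 991 lower genes. The 5 were FZD2, a WNT receptor, JAG2, a Notch ligand, NRARP, a Notch feedback gene, PTCH1, the Hedgehog receptor, and GLI2, its effector. NRARP was at 16.7 CPM in the control and 5.75 CPM after CBC, a change of -1.53 (-1.82 to -1.27) against -0.20, and PTCH1 at 3.83 CPM in the control and 1.32 CPM after CBC, a change of -1.48 (-2.14 to -0.96) against -0.16. AXIN2, the WNT feedback gene, fell from 57 to 5 counts, a change of -3.29 (-5.45 to -2.47) against -0.76, and LFNG, which modifies Notch, fell from 34.8 to 7.502 CPM.
The Hedgehog ligand SHH rose from 9.41 to 24.6 CPM, a change of 1.38 (1.16 to 1.61) against 0.72, while its receptor and effector fell. FZD8 rose from 2 to 34 counts, with a log2 interval from 1.86 to 6.93.
TGF-beta family and YAP target genes had 8 of 26 members lower and none higher, with a median of -0.44. TGFB2, a ligand, fell from 6.11 to 1.35 CPM, a change of -2.11 (-2.74 to -1.64), with 2 and 1 counts in MIA PaCa-2 cells. ID1 and ID2, targets of BMP signalling, fell by 1.02 and 1.70 on the log2 scale.
Receptor tyrosine kinases and ligands had 4 of 28 members higher and 3 lower, with a median of 0.08 (0.15 with library totals). FGFR3 and FGFR4 fell from 5.81 to 1.10 CPM and from 2.51 to 0.842 CPM, and the ligand FGF5 had a change of -1.44 (-1.60 to -1.28) against -0.20. HBEGF, an EGF receptor ligand, rose by 1.32 (1.18 to 1.47) against 2.59.

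Lysosome and autophagy genes had 10 of 54 members higher and none lower, with a median of 0.44 against 0.55 in MIA PaCa-2 cells. MAP1LC3B, which coats autophagosomes, was at 95.1 CPM in the control and 381 CPM after CBC, a change of 2.0 (1.93 to 2.07) against 1.94. OPTN, an autophagy receptor, and CTNS, the cystine exporter of lysosomes, rose by 1.41 and 1.33, with 1.46 and 1.20 in MIA PaCa-2 cells.
Genes of cholesterol and fatty acid synthesis fell in 9 of 35 cases and rose in none, with a median of -0.49 against -0.45. SCD, a fatty acid desaturase, fell from 216 to 80.9 CPM, a change of -1.42 (-1.49 to -1.35) against -1.89. FADS2, another desaturase, fell from 47.5 to 16.8 CPM, a change of -1.497 (-1.66 to -1.34) against -0.44, and EBP, of cholesterol synthesis, fell by 1.5 against -0.52. The regulator INSIG1 had 0.19 (0.02 to 0.36) against -1.01.
Glycolysis and hypoxia genes had 3 of 34 members higher and 3 lower in PANC-1 cells, against 6 higher and 4 lower of 32 in MIA PaCa-2 cells. Of 3 described genes of glucose uptake 2 were higher in each line, with medians of 1.98 and 2.08. The values that follow are those of PANC-1 cells. LDHA, which makes lactate, fell from 852 to 323 CPM, HK2, the first enzyme of glycolysis, rose from 29.4 to 107 CPM, and TXNIP, an inhibitor of glucose uptake, rose from 5 to 115 counts. NDRG1, a hypoxia gene, had 0.90 (0.80 to 1.02) against 3.45.
All 13 mitochondrially encoded protein genes had intervals below 0, with a median of -0.91 against -0.60, and 5 were lower past the threshold against 1 in MIA PaCa-2 cells. The 4 subunits of complexes III and IV were all lower, with a median of -1.18 against -0.63, and MT-CO1 went from 6099.5 to 2590.0 CPM. MT-ND6, the subunit encoded on the other strand, fell by 2.31 in PANC-1 and 2.42 in MIA PaCa-2 cells. Nuclear oxidative phosphorylation genes had 0 of 35 members past the threshold and a median of -0.33, and cytosolic ribosomal protein genes 0 of 33 and a median of 0.07 (0.14 with library totals).

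Epithelial genes had 4 of 21 members higher and 3 lower. CDH1, the epithelial cadherin, was at 1.41 CPM in the control and 4.79 CPM after CBC, a change of 1.71 (1.20 to 2.37), and had no count in MIA PaCa-2 cells. LCN2, a secreted iron-binding protein, had 1 count in the control and 218 after CBC, with a log2 interval from 5.01 to 12.81. The keratin KRT8 fell from 604 to 276 CPM, and KRT7 was at 2.15 CPM in the control and 2.12 CPM after CBC, a change of -0.02 (-0.60 to 0.56) against 3.66.
Of 32 mesenchymal and matrix genes, 3 rose and 2 fell. ITGB3, an integrin of vitronectin, rose from 3.69 to 13.5 CPM, a change of 1.85 (1.52 to 2.23), and COL1A1, of fibrillar collagen, fell from 134 to 46.4 CPM, a change of -1.52 (-1.62 to -1.43). MMP1, interstitial collagenase, rose from 5.76 to 37.0 CPM, a change of 2.67 (2.42 to 2.96) against 0.81, the highest change in the list of proteases, where 1 of 12 rose and 1 fell.
Of the cannabinoid receptors, TRP channels and endocannabinoid enzymes, 20 of 28 were described, with 1 higher and 1 lower. TRPV3, a heat-gated channel, rose from 8 to 49 counts, and TRPA1, an irritant receptor, fell from 30 to 6. TRPV2 was at 42.6 CPM in the control and 52.2 CPM after CBC, a change of 0.29 (0.18 to 0.41), and was under 1 CPM in MIA PaCa-2 cells. TRPV1, the capsaicin receptor, was at 4.53 CPM in the control and 4.83 CPM after CBC, a change of 0.09 (-0.29 to 0.48) against -0.43. CNR2, the cannabinoid receptor CB2, was not described, with 3 and 6 counts in PANC-1 cells.
Neuronal and neuroendocrine genes had 9 of 25 members higher and 3 lower, many at low counts. VGF, a secreted neuropeptide precursor, rose from 43.6 to 119.8 CPM, and SEMA6B, a guidance ligand, fell from 42.5 to 8.42 CPM. Of 31 actin, myosin and tubulin genes 1 rose and 3 fell, with a median of -0.34 against -0.40. TUBB2B, a neuronal beta tubulin, was at 8.22 CPM in the control and 19.1 CPM after CBC, a change of 1.20 (0.97 to 1.46) against -0.74, whereas the alpha tubulin gene TUBA4A fell by 1.83 and was under 1 CPM in MIA PaCa-2 cells.
Of 8 metallothionein and zinc transport genes, MT1X, a zinc-binding metallothionein, rose from 9.15 to 22.8 CPM and MT1A, another, fell from 42.3 to 11.7 CPM. Ribosome biogenesis and MYC genes had 2 of 31 higher, MXI1 and MXD1, both antagonists of MYC, by 1.74 and 1.16. MYC itself was at 64.4 CPM in the control and 61.4 CPM after CBC, a change of -0.07 (-0.17 to 0.03) against 1.22. Among 20 genes of xenobiotic metabolism and efflux 1 was higher (NQO2) and 1 lower (CYP1A1, from 26 to 12 counts), and the dioxin-responsive CYP1B1 had -0.95 against 0.56.

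By gene class, protein-coding genes made up 11952 of the 14091 described, with 776 higher and 829 lower. Of 1316 long noncoding RNA genes, 206 (15.7%) were higher and 87 (6.61%) lower, with a median of 0.23 against -0.00 for protein-coding genes. A list of 31 noncoding RNAs of stress and growth had 4 higher and none lower, with a median of 0.25 against 0.66 in MIA PaCa-2 cells. MIR22HG and MIR31HG, hosts of microRNAs, rose from 24.0 to 80.1 CPM and from 13.5 to 29.5 CPM, and GAS5, a host of small nucleolar RNAs, from 92.1 to 187 CPM. TYMSOS, divergent to the thymidylate synthase gene, fell from 80 to 10 counts, and GAS6-AS1 from 26 to 1, with a log2 interval from -10.32 to -2.36. The noncoding genes rested on fewer counts, with a median of 60.2 (mean of the pair) against 979.5 for the coding ones.
Transcribed unprocessed pseudogenes had 37 of 220 higher and 18 lower, and transcribed processed pseudogenes 11 of 68 higher and 5 lower. RPLP0P2 had no count in the control and 97 after CBC, at least 26.9-fold higher, and PSMD10P2 went from 18 to 254. LDHAP4 fell from 105 to 23 counts, the direction of its parent gene LDHA. Reads of pseudogenes and their parents may be split between near-identical copies, so these values are uncertain. All genes on the mitochondrial chromosome that were called, 13 of 26, were lower, with a median of -0.97.

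Promoter letters were compared over 15078 RefSeq windows of 10418 described genes, of 13975 symbols looked up, and set beside the 35116 windows of all genes in the RefSeq table. The CHOP and ATF4 core, TGATGNAA on either strand, was in 1.96% of windows of described genes, in 3.97% of 1033 windows of higher genes and in 1.61% of 930 windows of lower genes, beside 3.62% of all windows. It was in 1 of 164 windows of the higher genes with no shift in MIA PaCa-2 cells, or 0.61%. The antioxidant response element core, TGACNNNGC, was in 14.7% of windows of described genes, in 16.3% of those of higher genes and in 18.3% of those with no shift in MIA PaCa-2 cells, beside 13.3% of all windows. The AP-1 site, TGANTCA, was in 5.11%, 8.33% and 5.49% in the same order, beside 7.71%. The shares of the CHOP and ATF4 core and of the AP-1 site in higher genes thus stood above those of described genes and close to those of all windows.
For lower genes the cell cycle letters were counted. The E2F site TTTGGCGC was in 1.01% of windows of described genes, in 2.90% of those of lower genes and in 1.94% of the 155 windows of lower genes with no shift in MIA PaCa-2 cells, beside 0.652% of all windows. The E2F site TTTCCCGC was in 2.39%, 4.52% and 5.16% in the same order, beside 1.63%. The CHR core, TTTGAA, was in 10.1%, 17% and 12.9%, beside 15.2%, and CCAAT in 34.7%, 43.5% and 40.0%, beside 34.6%. Short motifs recur in windows of this length, the windows of 1 gene can overlap, and no test was run on these shares.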

How the data were processed

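The submitters' processing notes name cutadapt 2.7, STAR, HTSeq, edgeR and GRCh38, with which the authors went from reads to Ensembl genes. The strand setting is not given in the sources used here. The deposited table holds raw counts, and the deposited normalized signal, a CPM on TMM library sizes, was checked against the counts and not used further. Counts were processed with edgeR 4.0.16 in R 4.3.3 (TMM over 4 libraries, prior count 2), and intervals came from scipy 1.17.1. Symbols and positions are from GENCODE 44 (57392 of 58233 identifiers matched). Members and lists were chosen with earlier results of these data known. Genes were named by the interval bound nearest 0: the 12 higher and 12 lower whose mean reached 5 CPM, the 6 and 6 under 1 CPM in MIA PaCa-2 cells, and 3 and 3 per gene class and list, beside each list's largest difference between lines. With no shift in MIA PaCa-2 cells (12 and 12) and for opposite changes (5 and 5), the bound was that of the difference between the lines. The genes nearest 1 CPM and those the study measured were also in the rule. Other list members were named after their values were seen. No test was possible with 1 library per group. The difference between lines has a 95% counting interval from 4 counts with 0.5 added to each. Alternatives changed filter, prior count, scaling (DESeq2 1.42.0 size factors, TMM within line, totals), gene class and interval. A few genes and 1 list are not reported here. The calculation of the fold changes was run on simulated counts with counting error alone, so variation between cultures was not covered.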

Additional observations from a re-analysis of the deposited data

Results flagged for a closer look

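In 14 genes past the threshold in opposite directions the PANC-1 log2 fold change differed in sign from that of MIA PaCa-2 cells, so that the single library pair of one line moved one way and that of the other the opposite way. None of these differences was tested, since each line has 1 library per condition. PANC-1 minus MIA PaCa-2, the difference was 3.52 for DOCK11, 3.71 for F2RL2, 2.61 for SYT1, 2.50 for KNDC1 and 2.52 for FAM131C, which rose in PANC-1 cells. It was -6.69 for LPAR6, -5.85 for CD24, -5.45 for FLRT1, -4.61 for EDN1 and -4.57 for INHBB, which fell in PANC-1 cells. It was -3.67 for IFIT1, -2.84 for DUSP2, -2.45 for TNFRSF21 and -2.36 for CSF1, members of the gene lists that also fell in PANC-1 cells. LPAR6, FLRT1, EDN1 and CD24 rested on few counts in MIA PaCa-2 cells, with 0, 1, 6 and 1 in its control. The remaining opposite genes were counted in the report and are not named here.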

How the results depend on the processing

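Filter and interval moved the counts. Without a filter there were 2537 higher and 2310 lower genes, 571 and 475 with no shift in MIA PaCa-2 cells, 339 opposite and 821 unread in MIA PaCa-2 cells. With at least 5 CPM there were 633 higher, 93 higher and 88 lower with no shift, 11 opposite and 294 unread. With 1 CPM in both libraries 13 were opposite and 312 unread. Among protein-coding genes 121 were higher with no shift and 327 unread. With the counting interval wholly past the threshold there were 557 higher and 630 lower, 57 and 65 with no shift, 14 opposite and 241 unread. In all, 21 of 80 recomputed counts changed by over 1.5 times, against main counts of 1087, 991, 183, 142, 41 and 499. Of 340 recomputed list medians 19 moved beyond their counting interval. The histone median was -0.28 with at least 5 CPM and -0.69 with 1 CPM in both libraries, and the neuronal median 0.53 without a filter, -0.31 with at least 5 CPM and -0.28 with both libraries. That for lipid peroxidation was -0.092 with at least 5 CPM or both libraries, and that for receptor tyrosine kinases 0.28 without a filter. With library totals the medians were -0.84 for mitochondrially encoded genes, -0.25 for metallothioneins, -0.49 for heat shock, 0.15 for receptor tyrosine kinases, -0.27 for actin and 0.14 for ribosomal proteins, and with TMM within the line -0.94 for mitochondrially encoded genes and -0.36 for glycolysis. Of 2224 recomputed values of named genes 35 moved. No named gene past the threshold changed sign, and the signs of the other named genes, some of them near 0, were not compared. Scaling moved the median of all genes to between -0.01 and 0.09. No paired analysis was possible because the PANC-1 control and CBC groups share 1 replicate number and no result comes from a test, and a fit blocked on the line would give a mean over both lines, not the PANC-1 response. Depth limits genes near 1 CPM. Variation between cultures, and the solvent if the control lacked it, cannot be told apart from the treatment, nor the dose from the line.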
